A study of Homo sapiens with 6 samples.

Results

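The genes described here are 8 genes that start blood clotting or hold it in check, out of 60671 genes listed for U87 cells, a human glioblastoma cell line. They were picked by name as tissue factor (F3), its inhibitors TFPI and TFPI2, the protein C pathway genes THBD, PROCR and PROS1, and the protease receptors F2R and F2RL1, with the difference between the treated and control libraries already known. RNA-Seq was carried out on 3 libraries of cells exposed to 100 μM rutaecarpine for 48 h (rutaecarpine group) and on 3 libraries of cells exposed to the solvent, 0.1% DMSO, for 48 h (control group). Serum-free medium was used for dosing, and the dilution of the rutaecarpine stock left 0.1% DMSO in both groups. Rutaecarpine, an alkaloid of Evodia rutaecarpa, is studied in this series as an activator of the aryl hydrocarbon receptor (AhR), and the experiment asked which genes it alters in these cells. The cells are 1 established line grown in culture without blood or vessel wall, and the labels do not say whether the libraries of a group came from separate cultures. The study's methods describe replicates as independent experiments in a general statement on its statistics that does not name the sequencing libraries, so p-values measure the spread between libraries, which may be technical. In the whole cell population, a change in RNA per cell cannot be told apart from a change in the number of cells of a kind.

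Clotting starts when tissue factor on a cell surface binds factor VIIa from plasma and the pair activates factor X, which leads to thrombin. TFPI blocks factor Xa and the tissue factor complex, and its relative TFPI2 is a matrix-bound Kunitz inhibitor that acts mainly on plasmin and other proteases. Thrombin that binds thrombomodulin (THBD) no longer clots fibrinogen but activates protein C, which is held at the surface by its receptor PROCR and works with protein S (PROS1) as cofactor. Thrombin also cuts the receptor F2R (PAR1), and trypsin and the tissue factor complex cut F2RL1 (PAR2), so clotting proteases signal to cells. Glioblastoma is known for high tissue factor and for thrombosis in and around the tumour.

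Promoter sequence is shown for F3 and TFPI2, the genes with a raised level whose promoter was in the RefSeq table (GRCh38.p14), which held 6 of the 8 genes and did not list THBD and F2R. Each promoter ran from 250 bases before the transcription start to 49 bases after it, with the RefSeq start itself as position 0. GENCODE 29 places the start of the gene elsewhere for these members, 41 bases further upstream in F3, 238 in TFPI2 and 97 in F2RL1, and 11325 in TFPI and 6107 in PROS1, whose windows thus lie inside the GENCODE gene. Both strands were searched for 6 motifs bound by factors known for inflammatory, growth or AhR responses, namely AP-1 (TGANTCA), the EGR site (GCGGGGGCG), the GC box (GGGCGG), the CACCC box (CACCC), the core of the dioxin response element or DRE (GCGTG) and the NF-kappaB site. EGR and GC box matches can share bases, and in F3 a CACCC box shares bases with an AP-1 match. In the F3 stretch, on the minus strand at chr1:94541801-94542009, capitals mark the AP-1 and EGR matches. In the TFPI2 windows, on the minus strand of chromosome 7, capitals mark the match that the name gives. Each TFPI2 window lies before the RefSeq start but within an exon of 1 of the 7 TFPI2 transcripts in GENCODE 29, and the other 6 transcripts start after it. The F3 stretch lies upstream of all 4 F3 transcripts in GENCODE 29.
F3, positions -250 to -42: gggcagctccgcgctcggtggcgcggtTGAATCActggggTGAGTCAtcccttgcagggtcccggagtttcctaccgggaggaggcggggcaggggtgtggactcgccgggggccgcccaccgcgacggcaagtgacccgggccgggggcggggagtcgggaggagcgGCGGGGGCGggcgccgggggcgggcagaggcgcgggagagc
TFPI2 NF-kappaB, chr7:93890886-93890915: tcaacttggcGGGGAATTCCtctccctctt
TFPI2 EGR, chr7:93890852-93890881: agtttgcagcGCGGGGGCGgcggggtgaca
TFPI2 AP-1, chr7:93890820-93890849: ccccgtgcaTGAATCAgccacccctcaggc

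F3 and TFPI2 were the members with an AP-1 match, F3 with 2 matches that start at positions -223 and -210 and TFPI2 with 1 at -87. An AP-1 match was present in 7.71% of the 35116 promoters in the table. The same pair held an EGR match, at -82 in F3 and at -118 in TFPI2, against 5.07% of all promoters, and each of these shared bases with a GC box. TFPI2 alone held an NF-kappaB match, at -152, a motif found in 9.08% of all promoters. The DRE core was found in F2RL1, at -44, and in 36.5% of all promoters, and its letters were in none of the other 5 windows. The study searched a longer stretch upstream of the coding sequence for a longer form of the motif and lists a putative DRE for F3. The windows here cover only part of such a stretch. A GC box was found in 5 of the 6 windows and in 45.0% of all promoters, and a CACCC box in 3 of the 6 and in 59.9%. In the TFPI window, none of the 6 motifs was found. That window is 39.3% G and C, and the other 5 windows are 61.0 to 77.3%. A match is a run of letters and not evidence of binding, and these genes were chosen with their expression known.

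**Figure D1:**
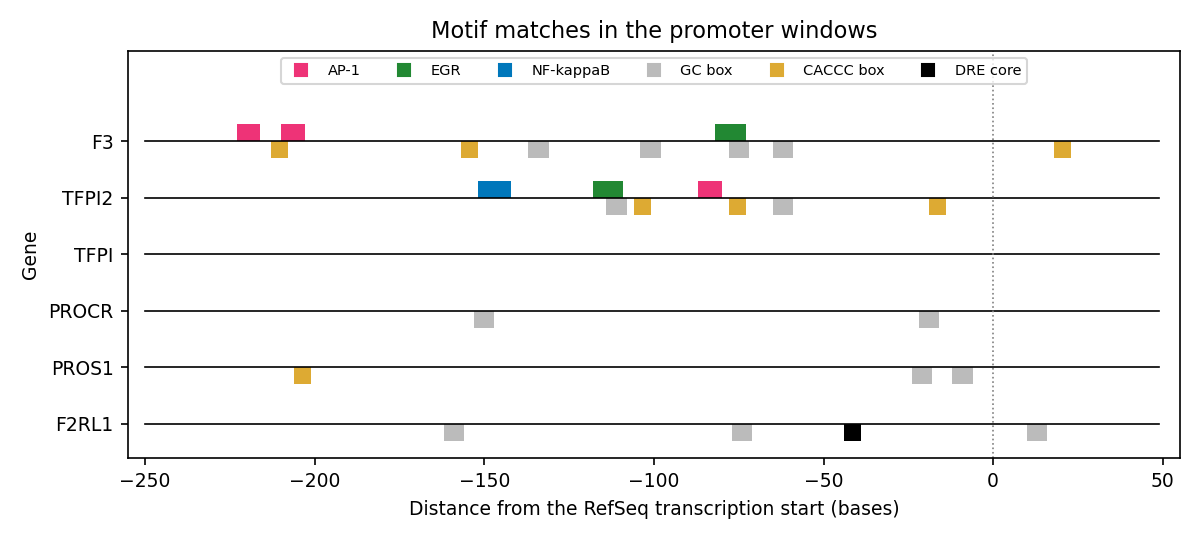
Motif matches (coloured boxes) along the promoter windows of the 6 members in the RefSeq table, from 250 bases before to 49 bases after the transcription start, with distance in bases on the x axis and boxes above or below the line only to keep overlapping motifs apart. F3 and TFPI2 carry AP-1 and EGR matches, and the TFPI window has no match to any of the 6 motifs.

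Levels are given as TPM, the transcript abundance from RSEM, which is scaled by gene length so that levels of different genes can be compared. TPM totals ran from 990889 to 995734 per library, and sequencing depth cannot be read from them. Genes were compared between the groups by limma on log2(TPM + 1), over the 14377 genes that reached 1 TPM in 3 or more libraries. A gene is said to rise or fall where its adjusted p was 0.05 or less, and it was called a differentially expressed gene (DEG) where its log2 fold change also passed 1 or -1. All 8 members were tested, THBD through its rutaecarpine libraries alone. Since the members were chosen on this same contrast, their fold changes and DEG calls are a description and no p is given for them. By these thresholds 3 of the 8 were DEGs, all up-regulated, against a background of 3.51% of all tested genes, 2.01% for up-regulated genes, and 9.29% for genes past the adjusted p alone. The groups did not overlap for 4 of the 8, against 33.3% of all tested genes.

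One library, control replicate 3, lay away from the other controls, and several members shared this. Its median log2(TPM + 1) over tested genes was 3.56, against 3.97 and 3.95 in control replicates 1 and 2. Compared with the mean of those replicates, its TPM was 42.2% for F3, 57.6% for TFPI, 55.4% for F2R, 61.6% for PROS1 and 61.8% for F2RL1. The other members were closer, at 85.4% for TFPI2, 91.3% for THBD and 108% for PROCR. Over all genes, this library was lower for long transcripts and for transcripts poor in G and C. The median log2 difference from replicates 1 and 2 was -0.61 for the longest and 0.06 for the shortest transcripts, with genes split into 3 equal groups by length. Split in the same way by GC content, it was -0.60 for the lowest and 0.03 for the highest group. The reference transcripts of THBD and PROCR, with 54.8% and 52.4% G and C, are the richest of the 8, and that of TFPI, with 35.1%, is the poorest. The part of these properties in the members' differences was not tested. Values without this library are given for the members that it moved and for some of the other genes.

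THBD (ENSG00000178726, chromosome 20, 23045633 to 23049741, minus strand, GRCh38 in GENCODE 29) encodes thrombomodulin and consists of 1 exon. In order of replicate, the control libraries held 0.38, 0.54 and 0.42 TPM and the rutaecarpine libraries 24.4, 24.9 and 26.7 TPM. The control libraries were thus all under 1 TPM, and the rutaecarpine libraries lay close together far above them. The mean TPM rose 56.7-fold, or 55.1-fold without control replicate 3. On the log2(TPM + 1) scale, which shrinks the change of a gene this low in the controls, the fold change was 4.19 (standard error 0.15), the 5th highest of the 14377 tested genes. With a pseudocount of 0.1 in place of 1 it was 5.55. Leaving out any 1 of the 6 libraries kept THBD a DEG, but the filter on low TPM stayed as set on all 6. THBD passed that filter only through the 3 rutaecarpine libraries. Without any 1 of these it would not reach 1 TPM in 3 libraries.

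**Figure D2:**
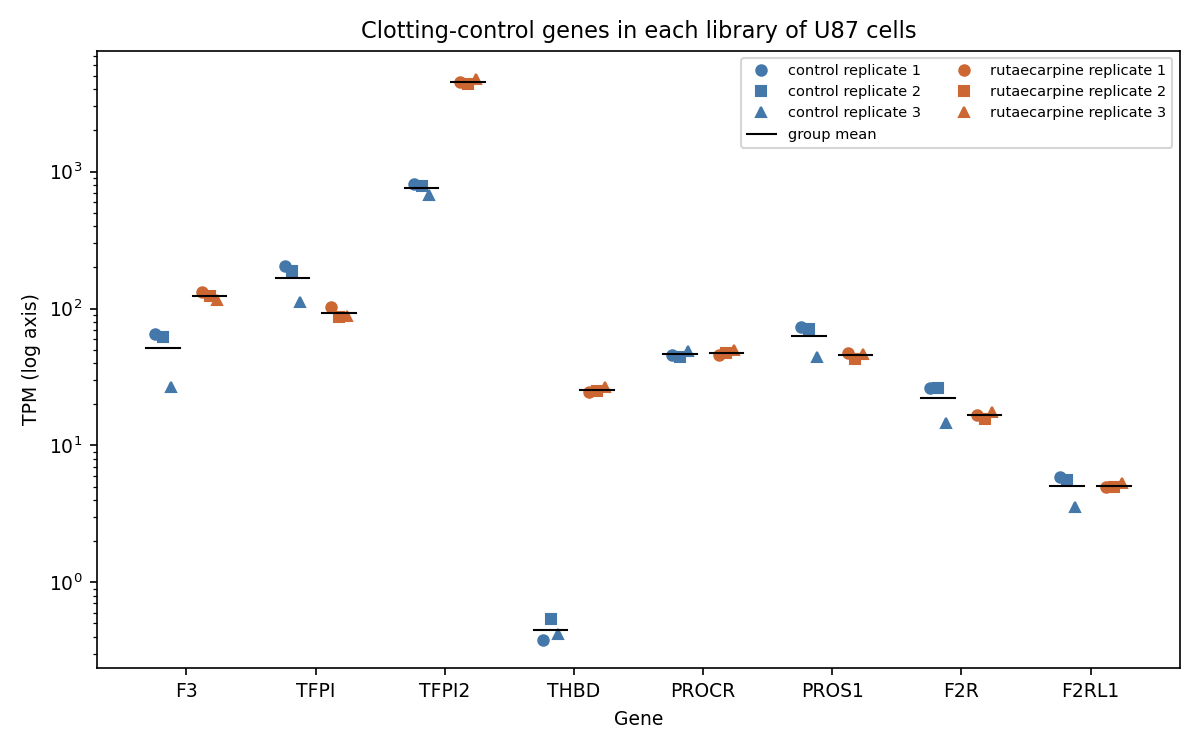
TPM (log axis) of the 8 genes in each library, with control libraries in blue, rutaecarpine libraries in orange, 1 marker shape per replicate number and a black line at each group mean. THBD moves from under 1 TPM to above F2R, TFPI2 lies above all other members in both groups, and control replicate 3 is the lowest control for F3, TFPI, TFPI2, PROS1, F2R and F2RL1.

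TFPI2 (ENSG00000105825, chromosome 7, 93885396 to 93890991, minus strand) was the most abundant member in every library. In order of replicate, the control libraries held 806, 779 and 677 TPM and the rutaecarpine libraries 4512, 4337 and 4770 TPM. Every rutaecarpine library lay far above every control library. The mean rose from 754 ± 68.0 to 4540 ± 218 TPM (SD, n = 3), 6.02-fold, and the log2 fold change was 2.59 (standard error 0.09). By mean level TFPI2 ranked 180th of the 14377 tested genes in the control group and 22nd in the rutaecarpine group. Leaving out any 1 of the 6 libraries kept it a DEG and gave log2 values from 2.52 to 2.64. GNGT1, which overlaps TFPI2 on the opposite strand, went from a mean of 0.47 to 1.55 TPM.

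F3 (ENSG00000117525, chromosome 1, 94529225 to 94541800, minus strand), the gene of tissue factor, rose as well. In order of replicate, the control libraries held 64.9, 61.6 and 26.7 TPM and the rutaecarpine libraries 132, 124 and 116 TPM. All rutaecarpine libraries were above all controls, and the controls themselves were spread by the low replicate 3. The ratio of the mean TPM was 2.43, and 1.96 without control replicate 3. The log2 fold change was 1.36 (standard error 0.32) with all libraries and 0.96 (standard error 0.08) without control replicate 3, which is under the DEG cutoff of 1. When libraries were left out 1 at a time, F3 stayed a DEG in 1 of 6 cases, that without control replicate 1. The adjusted p passed without control replicate 1 and without control replicate 3. It no longer passed without control replicate 2, nor without any 1 of the rutaecarpine replicates, and the log2 values of those fits were 1.31 to 1.55. With trends on transcript length and GC content removed from each library, the F3 log2 fold change was 1.27, and F3 was a DEG in that fit.

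TFPI (ENSG00000003436, chromosome 2, 187464230 to 187565760, minus strand), which inhibits the complex that F3 starts, was lower after rutaecarpine. In order of replicate, the control libraries held 203, 187 and 112 TPM and the rutaecarpine libraries 102, 87.3 and 87.5 TPM. The groups did not overlap, but control replicate 3 lay near the rutaecarpine libraries. The log2 fold change was -0.81 (standard error 0.22), which did not make it a DEG. It was -1.07 (standard error 0.09) without control replicate 3 and -1.02 (standard error 0.08) with the length and GC trends removed, and TFPI was a DEG in both of these fits. Among all tested genes, 4.24% were DEGs without control replicate 3. The values are for the gene as a whole, and its isoforms were not separated.

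The other genes of the protein C pathway, PROCR and PROS1, were not DEGs. PROCR (ENSG00000101000, chromosome 20, 35172073 to 35216240, plus strand), the protein C receptor, was at 45.9, 44.1 and 48.6 TPM in the control libraries and at 45.6, 47.3 and 50.0 TPM in the rutaecarpine libraries. The groups overlapped, and the log2 fold change was 0.04 (standard error 0.09), or -0.05 with the libraries centred on their medians. PROCR shares its span with MMP24OS on the opposite strand, at a mean of 112 and 131 TPM in the groups, and whether the counting used strand is not given in the sources used here. PROS1 (ENSG00000184500, chromosome 3, 93873033 to 93980003, minus strand), the cofactor protein S, was at 72.7, 70.8 and 44.2 TPM in the control libraries and at 47.7, 42.6 and 46.2 TPM in the rutaecarpine libraries. The low control replicate 3 lay among the rutaecarpine libraries, and the controls 1 and 2 lay above all of them. The PROS1 log2 fold change was -0.42 (standard error 0.19), and -0.65 (standard error 0.08) without control replicate 3, under the DEG cutoff either way. The PROS1 pseudogene PROS2P, whose reads could be mistaken for those of PROS1, was listed at 0 in every library.

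For both protease receptors, control replicate 3 was the lowest control. F2R (ENSG00000181104, chromosome 5, 76716043 to 76735781, plus strand), the thrombin receptor PAR1, was at 26.1, 26.4 and 14.6 TPM in the control libraries and at 16.8, 15.5 and 17.4 TPM in the rutaecarpine libraries. The control libraries 1 and 2 lay above the rest. The difference on the log2 scale was -0.37 (standard error 0.23), and -0.64 (standard error 0.10) without control replicate 3, so it was no DEG in either fit. The adjusted p of F2R passed without control replicate 3, with library weights and with length and GC trends removed, but not with all libraries. F2RL1 (ENSG00000164251, chromosome 5, 76818933 to 76835315, plus strand), the receptor PAR2, lies on the same chromosome and was the least abundant member after rutaecarpine. F2RL1 was at 5.92, 5.61 and 3.56 TPM in the control libraries and at 4.93, 4.93 and 5.29 TPM in the rutaecarpine libraries. The rutaecarpine libraries lay within the range of the controls, and the log2 fold change, 0.03 (standard error 0.20), turned to -0.16 (standard error 0.14) without control replicate 3 and to -0.06 when each library was centred on its median.

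**Figure D3:**
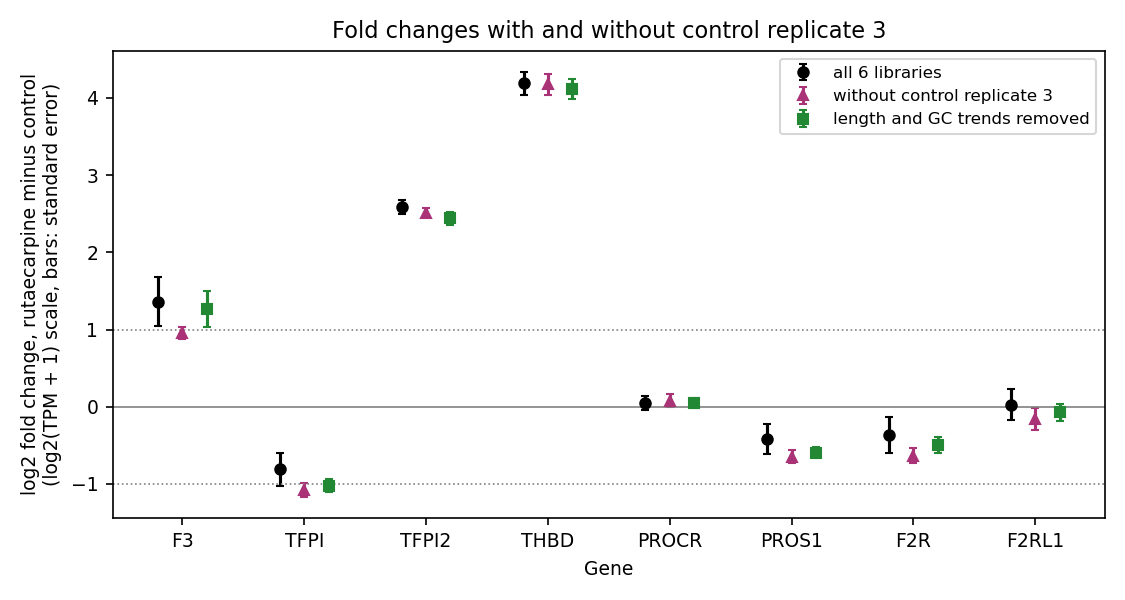
Log2 fold change (rutaecarpine minus control, log2(TPM + 1) scale) of the 8 genes with its standard error as bars, from all 6 libraries (black circles), without control replicate 3 (purple triangles) and with trends on transcript length and GC content removed (green squares). Dotted lines mark 1 and -1. THBD and TFPI2 hardly move between the fits, F3 drops from 1.36 to 0.96 and TFPI passes -1 without control replicate 3.

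The order of the levels differed between the groups. In the control group TFPI2 was highest, followed by TFPI, then PROS1, F3 and PROCR, then F2R, F2RL1 and THBD. The ranges of PROS1 and F3, and of F3 and PROCR, overlapped across the control libraries. Within each control library, however, PROS1 was above F3. F3 was above PROCR in control replicates 1 and 2 and below it in control replicate 3. In the rutaecarpine group the order was TFPI2, F3, TFPI, PROCR, PROS1, THBD, F2R and F2RL1, and of these neighbours only PROCR and PROS1 overlapped. F3 had thus moved past TFPI, and THBD past both receptors.

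Ratios of TPM between members within a library are not affected by the scaling of that library, but a shift with transcript length or GC content need not cancel. They are given as a description without a test. F3 over TFPI, the initiator over its inhibitor, was 0.320, 0.330 and 0.238 in the control libraries and 1.30, 1.42 and 1.32 in the rutaecarpine libraries. The ratio lay below 1 in every control library and above 1 in every rutaecarpine library, a 4.60-fold difference of the geometric means. TFPI2 over TFPI went from 4.72 ± 1.13 to 49.5 ± 5.11 (SD, n = 3), so that the balance between the related inhibitors shifted by 10.6-fold. THBD over PROCR, which weighs thrombomodulin against the protein C receptor, went from 0.00972 ± 0.00219 to 0.532 ± 0.00523 (SD, n = 3). THBD over F3 was 0.00586, 0.00876 and 0.0157 in the control libraries and 0.185, 0.201 and 0.231 in the rutaecarpine libraries. Thrombomodulin RNA therefore stayed below tissue factor RNA in every library, with the gap narrowed 22.0-fold. F2R over F2RL1 was 4.40 ± 0.312 in the control group and 3.28 ± 0.125 in the rutaecarpine group (SD, n = 3), and here too the groups did not overlap.

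**Figure D4:**
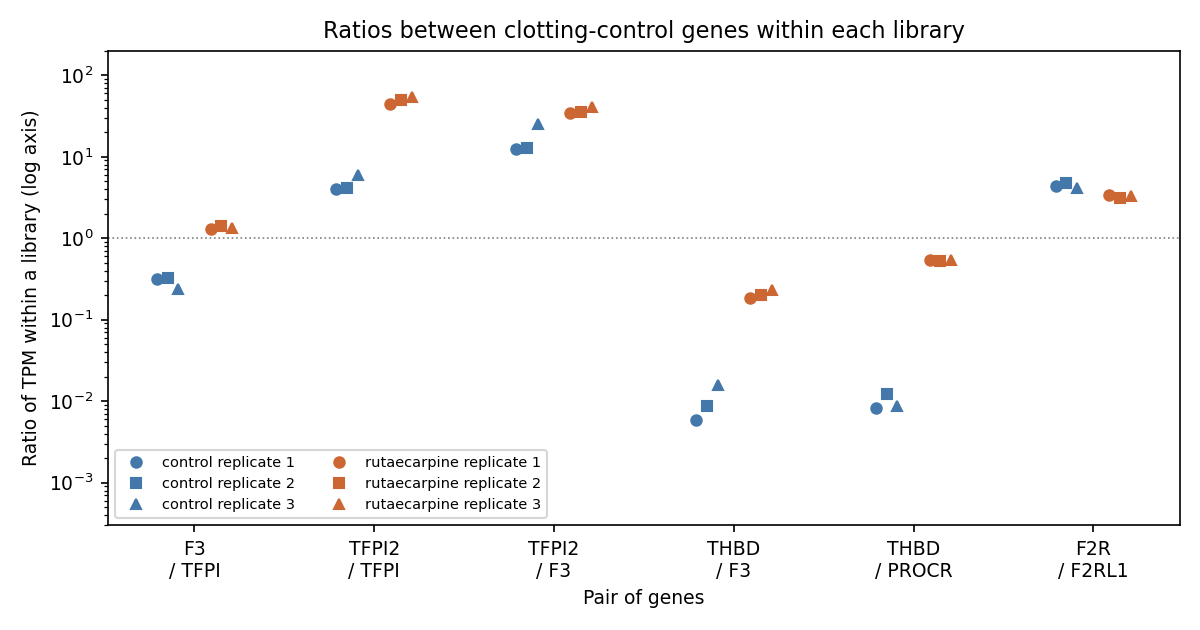
Ratio of TPM within each library (log axis) for 6 pairs of members, with control libraries in blue, rutaecarpine libraries in orange and a dotted line at 1. F3 over TFPI crosses 1 between the groups, THBD over F3 and THBD over PROCR stay below 1, and TFPI2 over F3 stays above 1.

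Of 55 other clotting genes examined, 26 stayed under 1 TPM in every library and 29 passed the filter on low TPM. By limma, 2 of the 29 rose and 6 fell, against a background of 4.60% and 4.68% of all tested genes. The DEGs were 1 up-regulated and 1 down-regulated gene of the 29, against 2.01% and 1.50% of all tested genes. The median log2 fold change of the 29 was -0.21, and that of all tested genes was 0.08. Of the 16 plasma clotting factors on the list, 14 stayed under 1 TPM in every library. Thrombin itself (F2) was at most 0.03 TPM, F7 at most 0.05 TPM, and protein C (PROC) at most 0.28 TPM. F10 had 1.24 ± 0.22 and 0.963 ± 0.405 TPM (SD, n = 3) in the control and rutaecarpine groups, and F8, a cofactor in factor X activation, 8.54 ± 1.08 and 7.48 ± 0.35 TPM.

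SERPIND1 (ENSG00000099937), which encodes the thrombin inhibitor heparin cofactor II, was the up-regulated DEG of the list. In order of replicate, the control libraries held 1.17, 1.53 and 1.50 TPM and the rutaecarpine libraries 6.84, 7.13 and 7.13 TPM. The groups were far apart. The log2 fold change was 1.75 with a standard error of 0.16, and the adjusted p 0.00122 by limma. SERPINE2, a cell-surface inhibitor of thrombin and plasminogen activators and the most abundant inhibitor on the list, had 172 ± 24.3 and 143 ± 5.12 TPM (SD, n = 3), with an adjusted p of 0.222 from limma.

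S100A10 (ENSG00000197747), which pairs with annexin A2 and binds plasminogen at the cell surface, was the down-regulated DEG. In order of replicate, the control libraries held 2420, 2330 and 2769 TPM and the rutaecarpine libraries 1205, 1263 and 1098 TPM. No library of either group came near the other, and the log2 fold change was -1.07 with a standard error of 0.10, and the adjusted p 0.00122 by limma. Its partner ANXA2 fell from 2105 ± 40.2 to 1610 ± 73.7 TPM (adjusted p = 0.0181 from limma, n = 3). SMPD1, an acid sphingomyelinase that can raise tissue factor activity, fell from 117 ± 6.43 to 91.9 ± 3.37 TPM (adjusted p = 0.0435 from limma, n = 3). P4HB, a disulfide isomerase linked to tissue factor activation, had 1418 ± 28.8 and 1300.4 ± 18.1 TPM with an adjusted p of 0.296 from limma (n = 3). ANXA5, of the same list group, had 643 ± 44.1 and 607 ± 19.3 TPM with an adjusted p of 0.564 from limma (n = 3).

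In the vitamin K cycle, which carboxylates protein S and the clotting factors, genes moved in both directions. NQO1, a quinone reductase that is also a known AhR target, rose from 111 ± 10.5 to 176 ± 5.25 TPM (adjusted p = 0.00581 from limma, n = 3). VKORC1, which recycles vitamin K, fell from 706 ± 52.9 to 510 ± 66.1 TPM (adjusted p = 0.0444 from limma, n = 3). The carboxylase GGCX had 37.4 ± 2.26 and 28.5 ± 1.17 TPM with an adjusted p of 0.0611 from limma (n = 3). GAS6, a relative of protein S that binds the same TAM receptors, fell from 34.6 ± 1.44 to 20.7 ± 0.964 TPM, with -0.71 on the log2 scale (adjusted p = 0.00623 from limma, n = 3). AXL, the most abundant TAM receptor here, had 92.9 ± 17.1 and 76.6 ± 6.08 TPM with an adjusted p of 0.339 from limma (n = 3).

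Of the other thrombin receptors, F2RL2 (PAR3) had 3.19 ± 0.78 and 1.81 ± 0.33 TPM, with groups that did not overlap and an adjusted p of 0.158 from limma (n = 3), and F2RL3 (PAR4) was at most 0.18 TPM. Among the proteins that couple such receptors, the arrestin ARRB2 fell from 56.9 ± 2.46 to 40.4 ± 5.13 TPM (adjusted p = 0.0409 from limma, n = 3). The adjusted p was 0.134 for GNA12, 0.980 for GNA11 and 0.851 for GNAQ by limma. Without control replicate 3, AXL, F2RL2, GGCX, GNA12 and SERPINE2 also passed an adjusted p of 0.05 as lower after rutaecarpine, against a background of 18.5% of all tested genes in that fit. Of the list genes that passed on the adjusted p, SERPIND1 and S100A10 did so in all 15 fits made with the 0.05 threshold. In the same fits, GAS6 and NQO1 passed in 14, ARRB2 in 7, and ANXA2, SMPD1 and VKORC1 in 6 each.

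**Figure D5:**
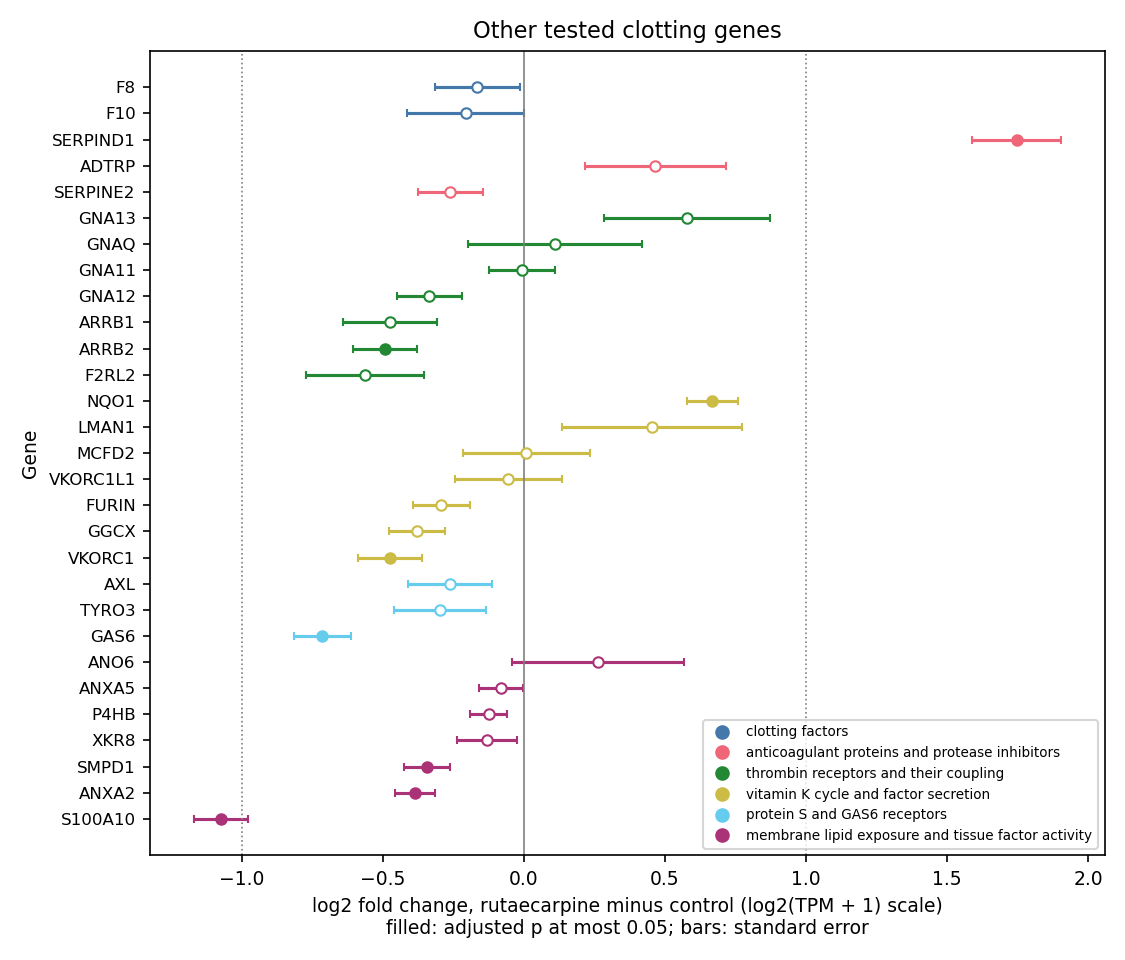
Log2 fold change (rutaecarpine minus control, log2(TPM + 1) scale) of the 29 tested genes of the clotting list, coloured by group, with bars for the standard error and filled points where the adjusted p from limma was at most 0.05. SERPIND1 lies beyond 1 and S100A10 beyond -1 (dotted lines), and the other filled points lie between them.

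THBD, PROCR and TFPI are best known from vessel lining, so markers of other cell types were read in the same libraries. The 8 endothelial markers summed to between 3.40 and 5.23 TPM in the control libraries and between 5.51 and 7.12 TPM in the rutaecarpine libraries, and 4 of them (KDR, PECAM1, TEK and TIE1) reached 1 TPM in some library. TIE1 went from 0.79, 1.10 and 0.72 TPM to 1.79, 3.83 and 1.19 TPM and PECAM1 from a mean of 0.633 to 1.17 TPM, both without overlap of the groups, while KDR and TEK overlapped. Of all tested genes, 33.3% had groups without overlap. The adjusted p of TIE1 was 0.199 from limma, and PECAM1 did not pass the filter on low TPM. The defining markers CDH5 and CLDN5 were at most 0.06 and 0.09 TPM in every library. The part of such cells in the THBD result was not tested. The 5 platelet markers summed to at most 0.63 TPM, with PF4 and GP9 at 0 in every library, and the 3 hepatocyte markers to at most 0.22 TPM. Of the 5 myeloid markers, which summed to between 460 and 519 TPM in the control libraries and between 326 and 364 TPM after rutaecarpine, CD68 made up most, and PTPRC was at most 0.03 TPM. The 8 glioma and mesenchymal markers summed to between 12429 and 15138 TPM in the control libraries and between 8604 and 9281 TPM after rutaecarpine. VIM and FN1 made up most of these sums. Of these, 6 were tested by limma, and 3 fell and 1 rose, against 4.68% and 4.60% of all tested genes. VIM fell from 7498 ± 499 to 4857 ± 381 TPM (adjusted p = 0.00894 from limma, n = 3), FN1 from 6025 ± 895 to 3241 ± 367 TPM (adjusted p = 0.00972 from limma, n = 3) and NES from 19.5 ± 2.01 to 13.2 ± 0.751 TPM (adjusted p = 0.0491 from limma, n = 3). OLIG2 rose from 1.59 ± 0.129 to 3.63 ± 0.524 TPM (adjusted p = 0.0262 from limma, n = 3). In the 15 fits made with the 0.05 threshold, FN1 passed in 14 and VIM in 12, but NES and OLIG2 in only 7 each. CD44 did not go with VIM and FN1, at 655 ± 210 and 756 ± 135 TPM in the control and rutaecarpine groups (adjusted p = 0.598 from limma, n = 3). GFAP was at 3.98 ± 0.795 and 4.67 ± 0.94 TPM in the groups, and SOX2 and S100B were at most 0.06 and 0.25 TPM. As a check of the treatment, the AhR target CYP1B1 went from 70.0 ± 23.6 to 390 ± 47.3 TPM (SD, n = 3).

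The genes whose pattern over the 6 libraries was most like that of THBD were the cytokine genes IL24 (Pearson's r = 0.9996), TNFSF14 (r = 0.9995) and IL1B (r = 0.9994), on the log2(TPM + 1) scale. On that scale their differences were 4.50, 1.61 and 5.08, and 103 tested genes had an r above 0.99 with THBD. For F3 they were C19orf12 (r = 0.9987), CMAS (r = 0.9981) and SLC2A3 (r = 0.9976), which share with F3 the low control replicate 3 and had log2 fold changes of 0.22, 0.44 and 0.99. These values describe 6 points that share their libraries and fall into the same groups.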

How the data were processed

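The deposited values are TPM, which the authors obtained with RSEM from NovaSeq reads, in 1 column per library. The submitters' processing notes name the genome build GRCh38.p13. The aligner, annotation release and strand setting are not given in the sources used here. Groups and replicate numbers came from the labels. All 6 columns matched a sample. TPM keep no read numbers, so counting error cannot be given and count models were not used, although the study's methods name some.

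Values were taken as log2(TPM + 1). The 14377 genes that reached 1 TPM in 3 or more libraries were fitted with limma 3.58.1 in R 4.3.3 (mean-variance trend, two-sided, Benjamini-Hochberg adjustment over all tested genes). The DEG cutoffs were those of the study, 0.05 for the adjusted p and 1 for the size of the log2 fold change. In a test of a single gene, the smallest exact permutation p of this design is 0.1. Positions, lengths and GC content came from GENCODE 29 on GRCh38, and promoters from RefSeq on GRCh38.p14. Tables and plots were made in Python 3.11.15. The fit was tested on simulated data.

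The members and the gene lists were chosen with earlier results of these data known. Named beside the 8 members were list genes past the thresholds, abundant list genes, a few receptors and factors, the 3 genes most like F3 and THBD by Pearson's r, and AHR, CYP1B1 and GAPDH as checks. F8, GGCX, SMPD1, FOSL1, FOSL2, KLF6, MEF2A, NFKB1, RELA and KLF4 were named after their values were seen. Alternatives were another scaling, pseudocounts, filters, no trend, a replicate block, library weights (arrayWeights), a stricter threshold and leaving out each library. The removal of length and GC trends (splines, 5 degrees of freedom, 14267 genes) was chosen after seeing how control replicate 3 differed.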

Additional observations from a re-analysis of the deposited data

How the results depend on the processing

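THBD and TFPI2 were DEGs under every alternative in which they were tested, THBD being left out when a TPM of at least 1 was required in every library. The fits that left out a library kept the filter set on all 6 libraries, which THBD passed only through the rutaecarpine group. F3 was a DEG in 6 of its 15 alternatives and TFPI in 2, those without control replicate 3 and with length and GC trends removed. PROCR, PROS1, F2R and F2RL1 were DEGs in none. Of all tested genes, 505 were DEGs, 318 with the replicate block and 94 at an adjusted p of at most 0.001. At that last threshold the clotting list had 0 by limma in place of 2. In the limma fit used for the results above, 13 of its 29 genes (44.8%) had an unadjusted p under 0.05, against 24.4% of all tested genes. The list was chosen with earlier results of these data known, so this share is only a description. Without control replicate 3, 610 were DEGs. Replicates of the same number did not deviate together (r = 0.12, -0.27 and -0.22 for numbers 1, 2 and 3). With 3 libraries a group and control replicate 3 apart from the others, these values cannot settle whether the numbers pair the libraries. Under the block F3 lost its call, and THBD and TFPI2 kept theirs. The sign of PROCR turned with the libraries centred on their medians (-0.0507). That of F2RL1 turned with the same centring (-0.0647), with arrayWeights (-0.138), with length and GC trends removed (-0.0737), without control replicate 3 (-0.16) and without rutaecarpine replicate 3 (-0.00012), and reached 0.14 without control replicate 1. The cause was not tested. Adding 0.1 to both genes moved the log2 difference of THBD over PROCR from 5.80 to 5.51. THBD was under 1 TPM in the control libraries, and its fold change ran from 4.09 to 5.55 over the alternatives.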

Other observations

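Transcription factors known to act on the F3 or THBD gene were also read, as a list of 21 genes. Of these 20 were tested by limma. With all libraries 8 rose and none fell, against 4.60% and 4.68% of all tested genes. Of the 20, 4 were DEGs, all up-regulated, against 2.01% of all tested genes. The list was chosen with earlier results known, so these counts are a description. Without control replicate 3, FOSL2 (log2 fold change -0.68) and KLF6 (-0.42) also passed an adjusted p of 0.05 as lower after rutaecarpine. MEF2A (0.64) passed as higher in that fit, in which 18.5% of all tested genes passed. EGR1, an early growth response factor, stood at 39.0, 37.7 and 33.5 TPM in the control libraries and at 131, 116 and 142 TPM in the rutaecarpine libraries. Its difference on the log2 scale was 1.79 with an adjusted p of 0.000334 by limma. KLF2, a factor known to raise THBD in vessel lining, had 1.73 ± 0.76 and 6.55 ± 2.27 TPM (SD, n = 3; adjusted p = 0.0317 from limma). It was a DEG in 8 of 16 fits, and its highest adjusted p was 0.133 by limma, without rutaecarpine replicate 3. KLF4, a related factor, had 12.7 ± 0.73 and 10.8 ± 1.14 TPM (adjusted p = 0.376 from limma, n = 3).

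The stress-response factor ATF3 rose from 35.6 ± 5.40 to 93.4 ± 14.0 TPM (adjusted p = 0.00269 from limma, n = 3) and FOSB from 1.36 ± 0.27 to 3.96 ± 0.49 TPM (adjusted p = 0.0124 from limma, n = 3). FOSB was a DEG in 9 of 16 fits, with log2 differences from 0.98 to 1.49 and a highest adjusted p of 0.0883 by limma, with the replicate block. At the 0.05 threshold JUNB passed in 8 of 15 fits and JUND in 6, while EGR1, ATF3, ATF4 and JUN passed in all 15. The AP-1 gene JUN rose from 190 ± 26.3 to 353 ± 22.8 TPM, or by 0.90 on the log2 scale (adjusted p = 0.00514 from limma, n = 3), and FOSL1, the most abundant FOS-type gene on the list, had 139 ± 6.70 and 158 ± 4.17 TPM (adjusted p = 0.187 from limma, n = 3). The NF-kappaB genes NFKB1 and RELA had adjusted p values of 0.192 and 0.141 from limma. HIF1A, among the most abundant genes of the list, had 228 ± 71.5 and 235 ± 33.5 TPM (adjusted p = 0.863 from limma, n = 3). AHR itself had 71.6 ± 36.1 and 72.5 ± 15.4 TPM (adjusted p = 0.846 from limma, n = 3), with control replicate 3 at 30.2 TPM, and GAPDH had 11555 ± 575 and 10448 ± 518 TPM (adjusted p = 0.360 from limma, n = 3).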
